A study of Mus musculus with 132 samples.

Results

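Mouse genes that span more than 500 kb were followed from embryonic stem cells to haematopoietic progenitors in total gene counts, in which reads from introns were counted together with reads from exons. A gene was taken when the count table gave it 1 chromosome and a span between 500 kb and 2.5 Mb, and 4 further genes in that range were left out by the selection. This gave 273 of the 25146 entries of the table. Of these, 206 were single long genes, each with a RefSeq gene model of at least 250 kb, and they are described here. The other 67 entries were copies of gene families, most of them vomeronasal receptors (36 were named Vmn1r), that the table had merged into 1 long interval although their longest RefSeq model measured 87190 bp. Because 61 of the 67 overlapped another entry of the set, reads could not be assigned to them with certainty and they were not analysed further. Of the 206 long genes, 203 were protein coding, 116 lay on the plus strand and 50 spanned more than 1 Mb, with a median span of 730 kb. They made up 0.825% of the entries and 14.7% of the summed span of the table. The shortest were Edil3 (501755 bp) and Dock1 (502962 bp), and the entries just under the limit were Lrrc7 (494577 bp) and Ank3 (493730 bp).

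The study asked what the CTCF sites near the promoters of Runx1, a transcription factor gene needed for blood formation, do during differentiation. RNA without poly(A) tails was sequenced from E14-TG2a mouse embryonic stem cells (mESC), a male line of strain 129/Ola, and from cells differentiated from them. Undifferentiated wild type (WT) mESC at day 0 gave 2 libraries labelled as technical replicates. Flk1+ mesoderm was sorted at day 4 from 3 WT clones (C6.1, C8.1 and B9.3), 3 clones that lack the CTCF site at the P1 promoter (P1-CTCF-KO clones E7.1, E7.2 and E9.1) and 3 that lack the one at P2 (P2-CTCF-KO clones D10.1, D2.1 and E9.1). Haematopoietic progenitor cells (HPC), sorted as Ter119-, CD41+ and CD45- cells at day 7, came from the same clones, with a repeat library (marked -2) for WT B9.3 and for P2-CTCF-KO D10.1 and D2.1. All differentiated cells received BMP4 first and bFGF and Activin A later in serum-free medium, and the sorted Flk1+ cells were then given SCF and VEGF. Each deletion was made with CRISPR-Cas9 in mESC and grown from single colonies, so a genotype is represented by its clones. Gene counts cannot show the deletion of a CTCF site, so the genotypes were taken from the labels.

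A polymerase moving through such a gene needs hours to reach its end, and nearly all of what it transcribes is intron. Intronic RNA is spliced out and degraded quickly, so in RNA that lacks poly(A) tails the reads of a long gene come largely from transcripts still being made. Many of the longest genes of mammals encode adhesion molecules, synaptic proteins and channels used by neurons, and several coincide with common fragile sites, where chromosomes break when replication is slowed.

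The promoter windows of 5 genes that the results turn on are shown here, from 250 bases before to 50 bases after the start given in the table, read from mm9 on the strand of the gene. Dlg2, Syne1 and Pard3b were among the genes with the largest gains in HPC, and Grid1 and Ank2 were among those that lost most of their counts there. Capitals mark GATAA, the core letters bound by GATA factors, and TGTGGT, the core bound by RUNX factors, on either strand (TTATC and ACCACA on the other). The windows came from chr7:98239045-98239344 (+) for Dlg2, chr10:4795598-4795897 (+) for Syne1, chr1:61685147-61685446 (+) for Pard3b, chr14:35633071-35633370 (+) for Grid1 and chr3:127201984-127202283 (-) for Ank2.
Dlg2: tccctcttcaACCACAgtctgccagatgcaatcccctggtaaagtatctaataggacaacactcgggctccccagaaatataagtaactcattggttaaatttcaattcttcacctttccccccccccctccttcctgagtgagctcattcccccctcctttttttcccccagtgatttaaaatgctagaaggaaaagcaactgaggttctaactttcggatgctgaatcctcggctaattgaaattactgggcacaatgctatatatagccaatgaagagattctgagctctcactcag
Syne1: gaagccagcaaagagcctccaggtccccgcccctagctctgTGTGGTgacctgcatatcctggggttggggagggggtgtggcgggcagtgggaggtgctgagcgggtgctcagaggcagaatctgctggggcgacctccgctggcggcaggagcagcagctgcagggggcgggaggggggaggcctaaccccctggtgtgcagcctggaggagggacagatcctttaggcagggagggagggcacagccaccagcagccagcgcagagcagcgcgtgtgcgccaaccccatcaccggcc
Pard3b: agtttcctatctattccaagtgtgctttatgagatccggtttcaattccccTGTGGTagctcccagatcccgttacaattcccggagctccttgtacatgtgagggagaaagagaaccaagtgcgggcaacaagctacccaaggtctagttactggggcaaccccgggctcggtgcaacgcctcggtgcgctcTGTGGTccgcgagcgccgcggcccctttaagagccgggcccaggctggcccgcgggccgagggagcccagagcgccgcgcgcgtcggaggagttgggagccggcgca
Grid1: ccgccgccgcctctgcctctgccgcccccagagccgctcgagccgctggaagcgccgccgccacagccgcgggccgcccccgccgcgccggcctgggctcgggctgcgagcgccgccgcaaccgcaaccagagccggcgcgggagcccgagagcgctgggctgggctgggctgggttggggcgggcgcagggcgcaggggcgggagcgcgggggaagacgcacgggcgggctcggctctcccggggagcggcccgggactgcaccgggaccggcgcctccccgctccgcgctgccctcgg
Ank2: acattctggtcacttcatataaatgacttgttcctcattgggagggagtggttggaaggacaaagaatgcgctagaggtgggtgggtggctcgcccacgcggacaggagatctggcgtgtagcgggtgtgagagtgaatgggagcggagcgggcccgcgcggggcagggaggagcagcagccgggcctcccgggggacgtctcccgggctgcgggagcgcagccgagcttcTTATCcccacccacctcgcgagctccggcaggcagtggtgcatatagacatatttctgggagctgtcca
The window of Grid1 was 83.0% G and C with 48 CG steps, whereas that of Dlg2 was 44.7% G and C with 3 CG steps. Pard3b held 2 TGTGGT strings, Dlg2 and Syne1 held 1 each, and Ank2 held 1 GATAA string. Among the long genes tested below in WT HPC against mesoderm, 3 of 18 that rose held TGTGGT, namely these 3. It stood in 6 of 54 that fell and in 9 of 94 that were not called. GATAA stood in 2 of 18, 9 of 54 and 12 of 94. The genes shown are thus not typical of those that rose. The Dlg2 window lies at an internal start, because the GENCODE annotation of the same build places the outermost start of Dlg2 588822 bp further upstream. The Ank2 window lies outside the GENCODE models, whose outermost start is at position 127111949, inside the span given by the table. The outermost GENCODE start of Grid1 lay 310 bp upstream of that in the table, and those of Syne1 and Pard3b lay at the neighbouring base.

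Over the 206 long genes, 17.0% of the windows held GATAA and 12.6% held TGTGGT, against 23.3% and 15.2% of the 24682 other single-locus entries. GGAAG, the core bound by ETS factors, stood in 64.6% of the windows of long genes and in 70.9% of the others. Each motif was searched separately on both strands, so matches of different motifs may overlap. The median window of a long gene had 59.7% G and C and 15 CG steps, compared with 55.3% and 11 in the other entries, and 68.9% against 53.7% of windows had at least 10 CG steps.

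Open chromatin was present at the start of most long genes in mesoderm. In the peaks deposited for ATAC-seq, an assay of accessible DNA, 155 of the 206 long genes (75.2%) had a mesoderm peak within 1 kb of the start, and the share was 39.2% to 73.3% in the shorter span classes. In HPC, 86 long genes (41.7%) had such a peak, against 24.5% to 50.9% in the shorter classes. A peak of CTCF, the architectural protein, in 416B cells, a mouse myeloid progenitor line, lay at the start of 13 long genes (6.31%), and the shorter classes had 11.3% to 15.5%. Syne1 was 1 of these 13 genes, and its start also had an ATAC-seq peak at both stages. The ATAC-seq replicates, of which mesoderm had 2 biological and HPC 1, each with 2 technical ones, were merged before peaks were called, so these shares carry no test. The peak lists held 76766 peaks for mesoderm and 29037 for HPC, so their shares are not compared with each other. Per the methods the ATAC-seq cells were a subline of E14-TG2a with a Venus reporter at Runx1 and an mCherry transgene driven by a Runx1 enhancer, not the clones used for RNA. GENCODE starts were matched for 180 long genes, with a median of 4 starts each, and 146 had their outermost start within 1 kb of the start in the table. With a peak counted near any of these starts, 154 of the 180 had one in mesoderm, 93 in HPC and 18 for CTCF. Near the outermost start alone the counts were 136, 76 and 11 of the 180. Shorter entries were not matched to GENCODE, so these counts have no other class beside them.

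Total counts ranged from 18233679 to 24406998 in mESC and mesoderm and from 7805102 to 13513677 in HPC, but little of this fell on ordinary genes. A set of 11 entries that each took over 0.5% of the single-locus counts in some library, led by Cmss1, Cdk8 and Lars2, together held 13.9% to 25.9% of single-locus counts in mESC and 58.5% to 84.4% in all other libraries. The levels below are therefore CPM, counts per 1000000 of those that remained without these 11, without ribosomal RNA entries and within single loci of up to 2.5 Mb. Those remaining counts numbered 3602188 to 6669965 in mESC, 304849 to 883898 in mesoderm and 244198 to 563858 in HPC, so a gene at 3 counts in HPC stood near the limit of detection. The methods describe removal of ribosomal RNA for undifferentiated mESC and 416B cells and not for the differentiated cells. The comparison of mesoderm with mESC is therefore also one between library preparations, and stage and preparation cannot be told apart. P-values measure the spread between these clones and libraries, and both mESC libraries come from 1 biological replicate, so their spread is technical only. In sorted bulk cells, fewer cells of a type and less RNA per cell cannot be told apart.

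Marker genes were highest in the cells of their label, but the clones differed in markers of other cell types. The summed level of 10 genes of undifferentiated mESC was 1587 to 1794 CPM in mESC and 39.0 to 71.2 CPM in WT mesoderm, and that of 10 mesoderm genes was 959 to 1693 CPM in WT mesoderm and 13.9 to 20.7 CPM in mESC. The list of 10 CD41+ HPC genes summed to 3428 to 5226 CPM in WT HPC and to 581 to 845 CPM in WT mesoderm, and none of its genes was at 0 in HPC. Endothelial genes stood at 2215 CPM in WT mesoderm B9.3, at 68.9 CPM in C6.1 and at 271 CPM in C8.1, and at 28.1 to 44.8 CPM in P2-CTCF-KO mesoderm. P2-CTCF-KO mesoderm also had more of the mESC list (132 to 254 CPM), of the mesoderm list (2037 to 3036 CPM) and of endoderm genes (610 to 967 CPM, against 254 to 449 CPM in WT mesoderm), and less of the CD41+ HPC list (223 to 420 CPM), all without overlap with WT mesoderm. In HPC, cardiac genes summed to 423 CPM in WT B9.3 and 66.0 to 106 CPM in the other WT libraries, and endothelial genes to 1564 CPM in P2-CTCF-KO D2.1. The part of these cells in the results below was not tested, and results that rest on these libraries are given with and without them.

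The long genes took a small and variable share of the counts. Of all single-locus counts they held 1.68% and 1.14% in mESC, 1.23%, 0.387% and 1.0% in WT mesoderm B9.3, C6.1 and C8.1, then 1.32%, 0.670%, 1.03% and 1.57% in WT HPC B9.3, B9.3-2, C6.1 and C8.1. Of the remaining counts, without the 11 dominant entries, they held 1.95% and 1.54% in mESC, 3.54%, 2.48% and 3.33% in WT mesoderm and 3.20%, 2.1%, 2.77% and 3.77% in WT HPC. Of all single-locus counts, the mESC mean (1.41%) lay above that of WT mesoderm (0.871%), but the libraries overlapped. Of the remaining counts, both mESC libraries lay below all WT mesoderm clones. WT mesoderm and WT HPC overlapped on both denominators. P1-CTCF-KO HPC ranged from 3.40% to 4.58% of the remaining counts and P2-CTCF-KO HPC from 1.58% to 4.12%. In each of the 3 clones with a repeat HPC library, the repeat held the lower share.

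**Figure D1:**
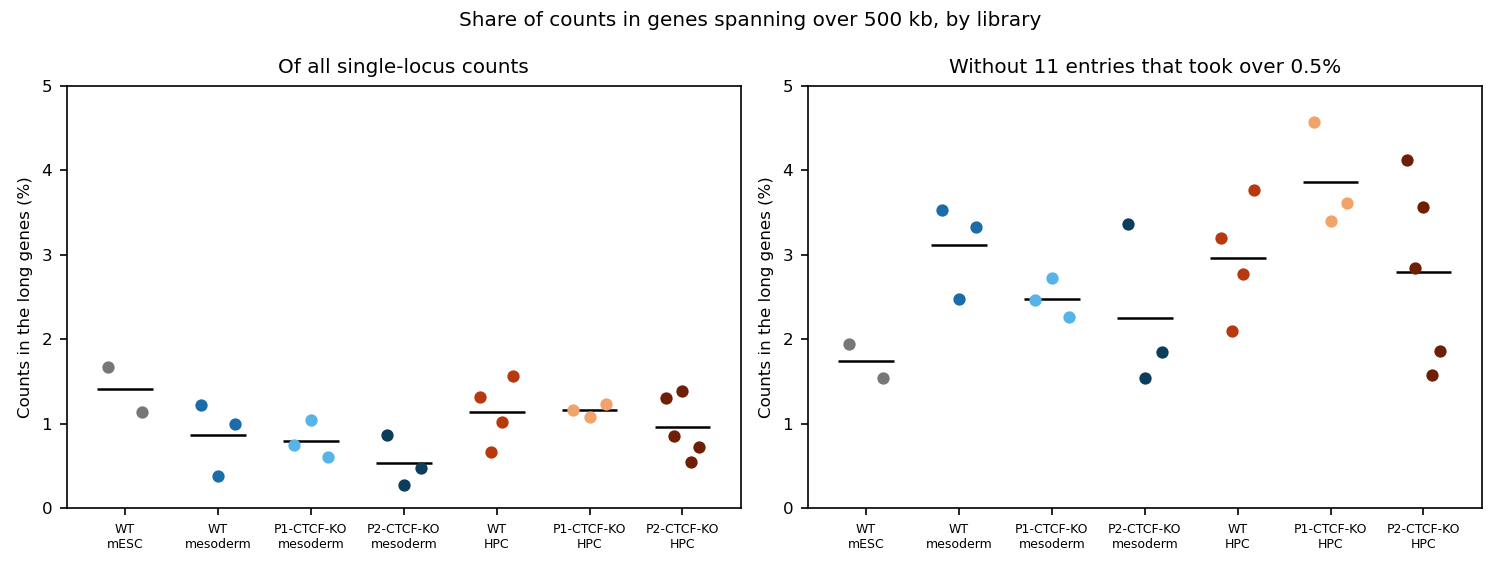
Share of counts that fell in the 206 long genes (y axis, %), with 1 point per library and a line for the mean of each group. The left panel divides by all single-locus counts and the right panel by the counts without the 11 dominant entries, where the mESC libraries (1.54% and 1.95%) lie below all WT mesoderm and WT HPC libraries.

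Fewer long genes were detected at each later stage. With at least 1 count, 202 and 203 of the 206 were seen in the mESC libraries, 164 to 187 in WT mesoderm and 132 to 161 in WT HPC, while the depth also decreased in this order. Every long gene had a count in some library, and 56 had more than 3 counts in all 23. The median level per length was 13.7 and 19.4 CPM per Mb of span in mESC, 18.2 to 30.7 in WT mesoderm and 5.46 to 13.8 in WT HPC. In WT HPC the top long gene alone held 9.68% to 16.5% of all counts in long genes and in P1-CTCF-KO HPC 11.6% to 22.7%, whereas in mESC it held 5.43% and 6.60%.

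The genes with the most counts per length differed between stages, and only Lpp was among the top 5 of mESC and of mesoderm. In mESC the densest were Etl4, a coiled-coil gene (1993 ± 54.9 CPM per Mb, SD of the 2 technical libraries), Lpp, a LIM-domain protein of focal adhesions (1314 ± 240), the teneurin Tenm4 (1231 ± 67.5), the receptor phosphatase Ptprk (1107 ± 120) and Exoc4, a subunit of the exocyst (1086 ± 244). In WT mesoderm they were the junction scaffold Magi1 (2150 ± 839, n = 3), the glypican Gpc6 (1897 ± 358), Lpp (1890 ± 645), the polarity gene Pard3 (1733 ± 449) and the receptor phosphatase Ptprg (1713 ± 381). In WT HPC they were the polarity gene Pard3b (3715 ± 1864, n = 4 libraries of 3 clones), the nuclear envelope gene Syne1 (2976 ± 1519), the cGMP-dependent kinase Prkg1 (2409 ± 1034), the guanine nucleotide exchange factor Kalrn (2225 ± 472) and the GTPase-activating gene Arhgap6 (1979 ± 1058). Neighbours in each of these orders lay within the larger of their SDs, except Etl4 above Lpp and Tenm4 above Ptprk in mESC. Entries nested inside Magi1 had counts equal to 20.7% of its own, so its level is uncertain by that much.

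The 5 longest genes were Ptprd, Dmd, Cntnap2, Lsamp and Lrp1b. Ptprd, a receptor phosphatase of synapses that spans 2271 kb, stood at 24.4 and 13.0 CPM in mESC, at 391, 85.3 and 106 CPM in WT mesoderm clones in the order B9.3, C6.1, C8.1, and at 34.6, 6.95, 4.82 and 5.55 CPM in WT HPC B9.3, B9.3-2, C6.1 and C8.1. All 3 mesoderm clones lay above both mESC libraries and above all HPC libraries, and clone B9.3 was highest at both stages. Ptprd rose in mesoderm (log2 fold change 3.50 ± 0.76, SE; adjusted p = 0.00656) and fell in HPC (log2 fold change -3.77 ± 0.71, adjusted p = 0.00225, both by the quasi-likelihood test of edgeR, adjusted by Benjamini and Hochberg). Dmd, the dystrophin gene, fell from 154 and 130 CPM in mESC to 10.2, 19.7 and 4.68 CPM in the mesoderm clones (log2 fold change -3.69 ± 0.44, adjusted p = 0.000231) without overlap. Cntnap2, a neurexin-like adhesion gene, fell from 14.7 and 15 CPM in mESC to 0, 3.28 and 6.24 CPM in mesoderm (-2.14 ± 0.73, adjusted p = 0.0473) and ranged from 3.70 to 20.8 CPM in WT HPC. Lsamp, a cell adhesion gene of the limbic system, had 0.833 to 3.15 CPM in mESC and 17.1 to 23 CPM in WT mesoderm (log2 fold change 3.27 ± 0.70, adjusted p = 0.00563). Lrp1b, a lipoprotein receptor family gene, ranged from 18.7 to 78.5 CPM in WT mesoderm and from 10.4 to 14.8 CPM in WT HPC, a difference that did not pass after adjustment (adjusted p = 0.0621). With the mESC libraries summed to 1, the difference between mESC and mesoderm still passed for Dmd (adjusted p = 0.00488) and did not for Ptprd (0.0762), Lsamp (0.0606) and Cntnap2 (0.19).

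Between mESC and WT mesoderm, more long genes rose than fell. Of the 206, 166 passed the filter on low counts, 54 of them rose (32.5%, against 10.7% of all 12899 entries tested) and 23 fell (13.9%, against 13.7%). An entry was called with an adjusted p under 0.05 and a log2 fold change beyond 1 in either direction. The median log2 fold change was 0.67 over the 166 genes tested and -0.18 over all entries. DESeq2 called 54 higher and 13 lower, and the counts were 28 and 8 without mESC library 1 and 21 and 12 without mESC library 2. With both mESC libraries summed to 1, a fit chosen after seeing the data, 23 of 171 long genes rose (4.21% of all entries did) and 9 fell (against 4.48%), and all 32 were among the 77 called with the libraries apart. In these 3 fits mESC is 1 library that is assumed to vary like the mesoderm and HPC groups. The filter ran over all 9 WT libraries, so a gene high in any 1 of the 3 stages, HPC included, could pass it. These counts do not describe the other 40 long genes.

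Kalrn, Frmd4a and Nfia were among the genes with the smallest adjusted p that rose. Kalrn, a guanine nucleotide exchange factor for small GTPases, stood at 28.0 and 30.3 CPM in mESC and at 220, 328 and 461 CPM in the mesoderm clones (log2 fold change 3.62 ± 0.38, adjusted p = 0.000136). The FERM-domain scaffold gene Frmd4a stood at 53.1 and 55.2 CPM in mESC and at 433, 256 and 357 CPM in mesoderm (2.80 ± 0.30, adjusted p = 0.000156). Nfia, a nuclear factor I transcription factor, stood at 22.2 and 12.2 CPM and then at 404, 187 and 287 CPM (4.18 ± 0.52, adjusted p = 0.00029). The groups did not overlap for any of the 3 genes, and every mesoderm clone was several times above both mESC libraries. Lrmda, a leucine-rich repeat gene linked to melanocyte differentiation, rose from 4.50 and 1.94 CPM to 58.1, 19.7 and 42.1 CPM (3.70 ± 0.47, adjusted p = 0.000336). Dpf3, a subunit of BAF chromatin remodelling complexes, rose from 2.70 and 2.78 CPM to 33.4, 82.0 and 204 CPM (5.34 ± 0.74, adjusted p = 0.000517). Both were lower in each mESC library than in any mesoderm clone, and for Dpf3 the 3 clones were themselves widely spread. Gm38667, Gm38666 and Gm37013 cover 1 protocadherin cluster and share nearly all their reads. Each rose with a log2 fold change of 2.05 ± 0.26. They amount to 1 observation, but the totals of long genes given here count all 3. Schip1 and Iqschfp likewise had the same values, such as a log2 fold change of 1.26 in P2-CTCF-KO HPC against mesoderm, and both are counted.

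Channel, receptor and cytoskeleton genes were among the genes that fell. Adgrv1, an adhesion G protein-coupled receptor, stood at 185 and 167 CPM in mESC and at 4.36, 9.84 and 4.68 CPM in the mesoderm clones (log2 fold change -4.85 ± 0.41, adjusted p = 5.85e-05). Gabrg3, a subunit of the GABA-A receptor, had 105 and 66.9 CPM in mESC and a single count in all 3 mesoderm clones together (adjusted p = 0.000161). Enox1, a cell-surface oxidase gene, stood at 533 and 560 CPM in mESC and at 45.1, 16.4 and 31.2 CPM in mesoderm (-3.95 ± 0.76, adjusted p = 0.00331). None of these 3 genes overlapped between the stages. The diacylglycerol kinase gene Dgkb went from 75.1 and 62.7 CPM to 2 counts in 3 clones (adjusted p = 0.000316). A830018L16Rik fell from 64.2 and 41.4 CPM to between 4.36 and 9.84 CPM (-3.11 ± 0.50, adjusted p = 0.00119). Snhg14, the long host transcript of imprinted small nucleolar RNAs, fell from 500.5 and 428 CPM to 82.9, 154 and 128 CPM (-1.86 ± 0.26, adjusted p = 0.000559), and entries inside its span held counts equal to 62.9% of its own.

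By role, every transcription or RNA regulator that was called in mesoderm had risen. All 20 of this list were tested and 9 rose (median log2 fold change 1.43). They included Nfia, the activator gene Auts2 (2.33, adjusted p = 0.00134), the helix-loop-helix gene Npas3 (2.58, adjusted p = 0.00222) and the nuclear receptor gene Rora (2.17, adjusted p = 0.00462). Of 34 adhesion and synapse genes, 22 were tested, 7 rose and 3 fell (median 1.68), with the contactin Cntn4 (4.89, adjusted p = 0.00103) and the neurexin Nrxn3 (5.59, adjusted p = 0.00183) at the top. Of 26 receptors and channels, 21 were tested, 7 rose and 5 fell. Of 20 kinases, receptors and second messengers, 17 were tested, 5 rose and 3 fell. The shares that rose were 45% for regulators, 31.8% for adhesion genes, 33.3% for receptors and channels and 29.4% for kinases. The last 3 lie near the 32.5% of all long genes tested (10.7% of all entries). In the same order, 0%, 13.6%, 23.8% and 17.6% fell, against 13.9% of all long genes tested. Of 15 genes at fragile sites or of genome maintenance, 13 were tested and 3 were called, all higher, namely the fragile-site gene Fhit (2.15, adjusted p = 0.00138), Cdk14 (2.22, adjusted p = 0.00305) and Gmds (1.64, adjusted p = 0.038). With the mESC libraries summed to 1, Rora (adjusted p = 0.0563) and Gmds (0.198) did not pass, and the other genes named here did.

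**Figure D2:**
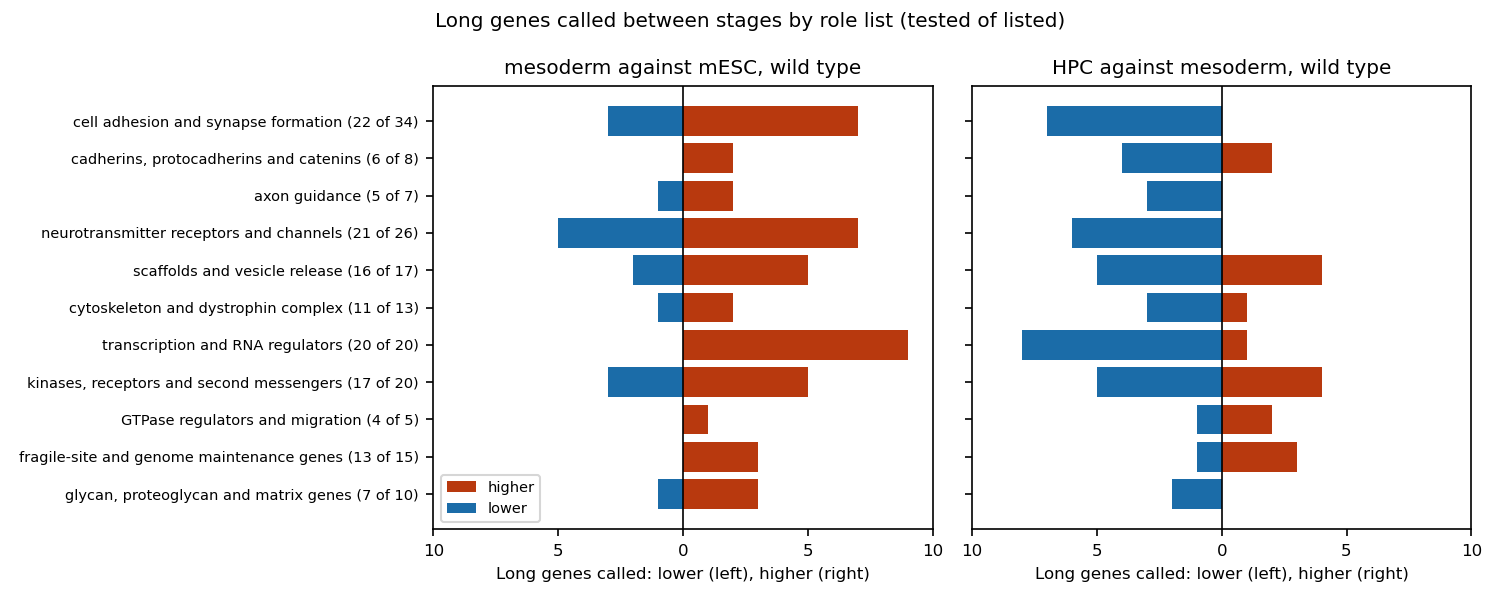
Number of long genes called in each role list (x axis, lower to the left and higher to the right of 0), in WT mesoderm against mESC (left) and WT HPC against mesoderm (right), with the numbers tested and listed in brackets. Transcription and RNA regulators show 9 higher in mesoderm, and 1 higher and 8 lower in HPC.

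Between WT mesoderm and WT HPC the balance turned. Of the same 166 long genes, 18 rose (10.8%, against 10.8% of all entries) and 54 fell (32.5%, against 12.5%), with a median log2 fold change of -0.98 over long genes and -0.01 over all entries. The share that rose was that of the table as a whole. Mesoderm is common to both stage comparisons, so they are not independent. Without mesoderm clone B9.3, the clone rich in endothelial genes, 21 rose and 44 fell. Without HPC library B9.3, with the highest cardiac and smooth muscle sum of its group, 21 rose and 66 fell. With the clone as a block, which left 88 long genes tested, 15 rose and 28 fell. The same libraries without the block gave 17 and 27.

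Few long genes rose, and some of these rose very far. Dlg2, a scaffold of synaptic membranes in the PSD-95 family, had 7.27, 3.28 and 1.56 CPM in mesoderm and 1346, 354, 646 and 1401 CPM in HPC (log2 fold change 7.89 ± 0.76, adjusted p = 3.62e-05). Syne1, whose giant product nesprin-1 ties the nucleus to actin, had 81.4, 9.84 and 21.8 CPM in mesoderm and 2078, 840 and 948 CPM in HPC B9.3, B9.3-2 and C6.1, with 2448 CPM in C8.1 (5.39 ± 0.68, adjusted p = 0.000188). Dlgap1, a partner of the PSD-95 family, had 9.35 to 19.7 CPM in mesoderm and 61.0, 208, 188 and 228 CPM in HPC (3.92 ± 0.50, adjusted p = 0.00019). In each of these genes the lowest HPC library was above the highest mesoderm clone, and for Dlg2 the mesoderm values came from 7 counts in 3 libraries. Pard3b, a PAR3 family polarity gene, had 267, 42.6 and 56.1 CPM in mesoderm and 3575, 1667, 3459 and 6209 CPM in HPC (5.0 ± 0.73, adjusted p = 0.000474). Kalrn rose again, to 1511, 1132, 905 and 1302 CPM (1.96 ± 0.29, adjusted p = 0.000458), and so was higher at each later stage. Prkg1, the kinase that acts downstream of cGMP, had 576, 52.5 and 103 CPM in mesoderm and 2013, 2028, 2870 and 4655 CPM in HPC (3.63 ± 0.73, adjusted p = 0.00342). The groups did not overlap for these 3 genes either, and mesoderm B9.3 was the highest of its group for Pard3b and Prkg1.

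The other named genes that rose did so by less. Lrmda had 167 to 205 CPM in HPC (log2 fold change 2.28 ± 0.36, adjusted p = 0.000709). Lrba, which acts in vesicle traffic and recycling of receptors in lymphocytes, went from 103, 174 and 96.7 CPM to 246, 347, 338 and 305 CPM (1.44 ± 0.25, adjusted p = 0.00128). Both were separated between the stages.

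The genes that fell came from every role list. Grid1, a glutamate receptor of the delta family, had 124, 78.7 and 143 CPM in mesoderm and 0, 3.47, 4.82 and 0 CPM in HPC, which is 3 counts in 4 libraries (adjusted p = 3.48e-05). Diaph2, a formin that assembles actin, had 584, 397 and 196 CPM in mesoderm and 44.7, 27.8, 7.24 and 37.0 CPM in HPC (log2 fold change -3.61 ± 0.48, adjusted p = 0.000244). Ank2, which encodes ankyrin-B and anchors channels to the membrane skeleton, had 140, 266 and 323 CPM in mesoderm and 34.6, 13.9, 9.65 and 1.85 CPM in HPC (-3.89 ± 0.53, adjusted p = 0.000314). No HPC library reached any mesoderm clone in these genes, and Ank2 and Diaph2 were highest in HPC B9.3. The cyclin-dependent kinase gene Cdk14 fell from 310, 495 and 371 CPM to 112, 45.1, 48.2 and 38.9 CPM (-2.54 ± 0.36, adjusted p = 0.000365), and Rora fell from 218, 364 and 652 CPM to 81.3, 59.0, 77.2 and 37.0 CPM (-2.59 ± 0.38, adjusted p = 0.00046). Gpc6, a heparan sulphate proteoglycan, fell from 1580, 2313 and 2106 CPM to 449, 13.9, 38.6 and 18.5 CPM (-3.78 ± 0.91, adjusted p = 0.00936). Tenm4 had 731, 653 and 741 CPM in mesoderm, close to its level in mESC (946 and 875 CPM), and 136, 0, 7.24 and 1.85 CPM in HPC (-4.08 ± 0.88, adjusted p = 0.00505). In all 4 of these genes HPC B9.3 was the highest HPC library and the groups stayed apart. The 3 overlapping protocadherin cluster entries fell with log2 fold changes of -2.36 to -2.38, the smallest adjusted p of this comparison among long genes (2.71e-05).

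**Figure D3:**
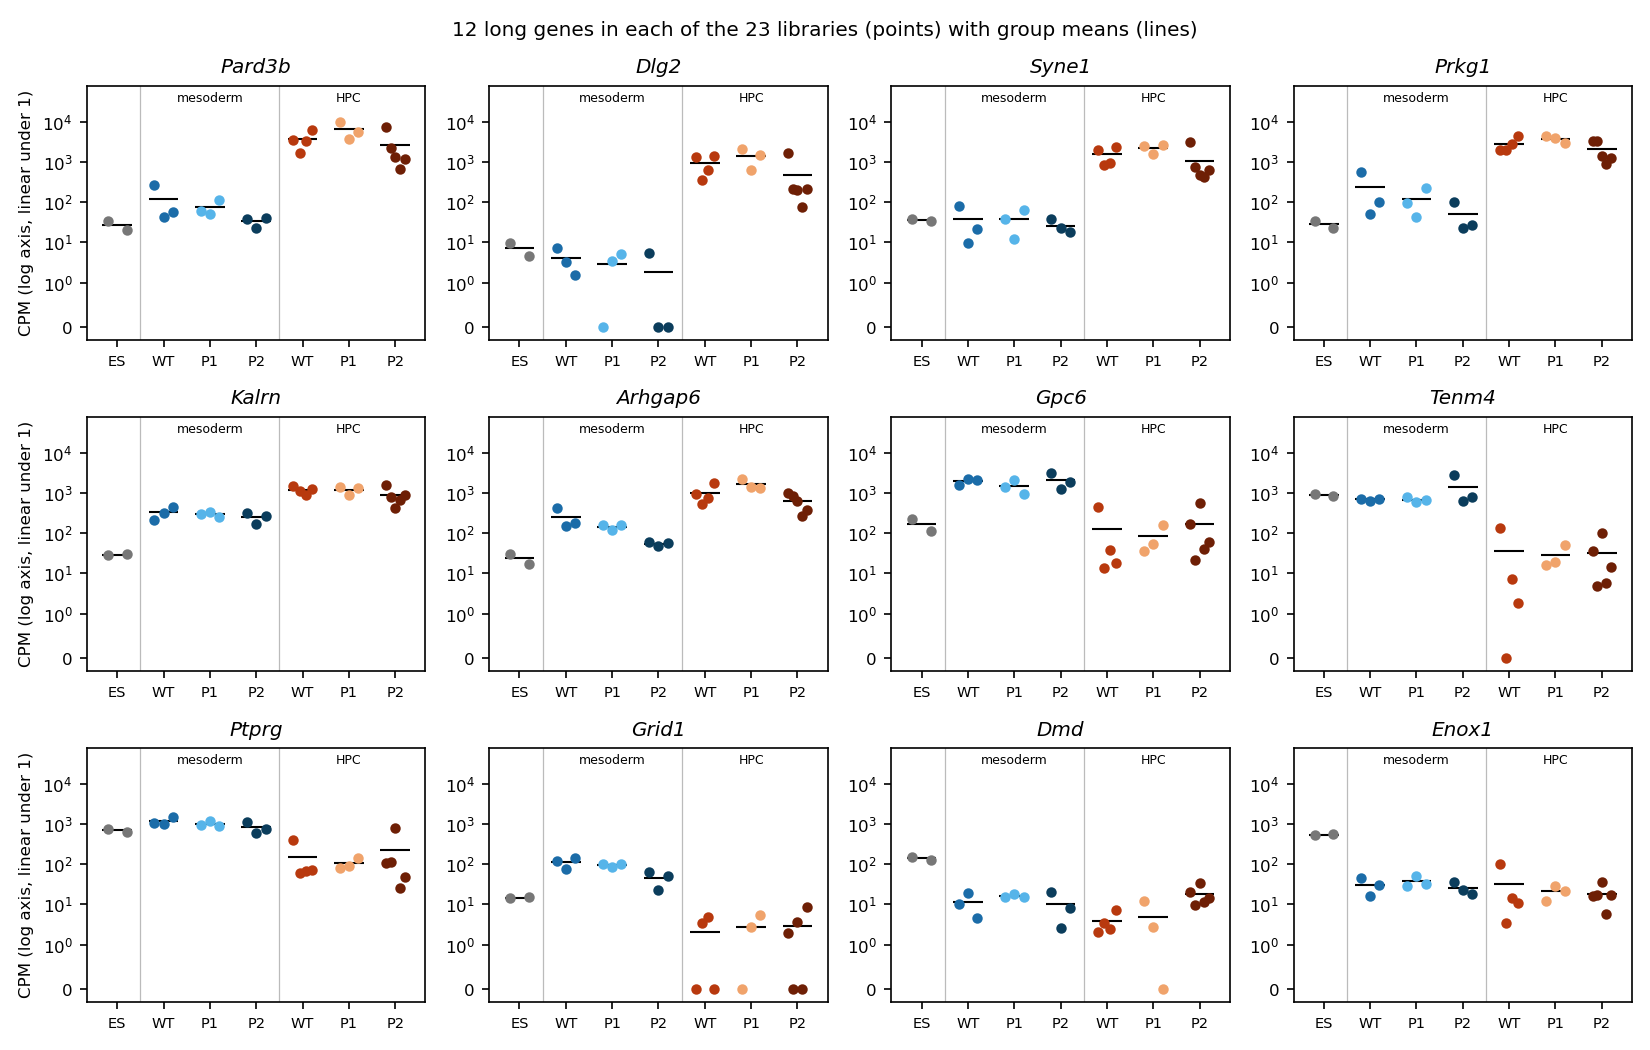
Level of 12 long genes (y axis, CPM on a log axis that is linear under 1) in each of the 23 libraries, shown as points with a line for the mean of each group. ES marks mESC, WT marks wild type, and P1 and P2 mark the clones without the CTCF site at that promoter. Pard3b, Dlg2, Syne1 and Prkg1 lie above 75 CPM in every HPC library, and Grid1 lies under 9 CPM in every HPC library.

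The adhesion, axon guidance, receptor and channel genes that were called in WT HPC against mesoderm had all fallen. Of 22 adhesion and synapse genes tested, 7 fell and the others did not pass (median log2 fold change -1.23), with Cntn4 (adjusted p = 0.000647) and Ptprd first. Of 21 receptors and channels 6 fell, of 5 axon guidance genes 3 fell, and of 7 glycan and matrix genes 2 fell. The shares were 31.8% for adhesion genes, 28.6% for receptors and channels and 28.6% for glycan and matrix genes, near the 32.5% of all long genes tested. Of 6 cadherins, protocadherins and catenins, 4 fell, with the giant cadherin Fat3 (-3.42, adjusted p = 0.00087) and Cdh13 (-3.56, adjusted p = 0.00427) first, and the protocadherin Pcdh9 (3.74, adjusted p = 0.00999) and the delta-catenin Ctnnd2 (1.07, adjusted p = 0.0263) rose. Scaffolds split into 4 that rose and 5 that fell, with Pard3b rising and its paralog Pard3 falling from 799.5, 817 and 1235 CPM to 256, 302, 347 and 146 CPM (-1.78, adjusted p = 0.000654). Of 20 transcription and RNA regulators, 8 fell and 1 rose, the splicing regulator Celf2 (1.53, adjusted p = 0.0217). Their median log2 fold change was -0.42. In the deletion genotypes 16 regulators were tested between these stages. There 6 rose and 2 fell in P1-CTCF-KO (median 1.045), and 4 rose and 2 fell in P2-CTCF-KO (0.81). In P2-CTCF-KO 1 adhesion gene rose and 4 fell, and 1 receptor or channel gene rose and 2 fell. In P1-CTCF-KO these numbers were 0 and 5, and 1 and 1. In WT, of 17 kinases, receptors and second messengers tested 4 rose (23.5%) and 5 fell (29.4%). Of 4 GTPase regulators tested in WT 2 rose and 1 fell, and of 13 fragile-site genes 3 rose (23.1%) and 1 fell (7.69%). Among all long genes tested in WT, 10.8% rose and 32.5% fell. Summed neural marker genes stood at 56.1 to 103 CPM in WT mesoderm, where 4 of the 12 were at 0, and at 11.1 to 22.4 CPM in WT HPC, where 8 of the 12 were at 0. The part of neural cells in the fall of these genes was not tested.

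Most of the genes that rose in WT HPC rose in both deletion genotypes as well. In P1-CTCF-KO, 31 of 115 long genes tested rose between mesoderm and HPC (27%, against 16.6% of all entries) and 26 fell (22.6%, against 16.1%). In P2-CTCF-KO, 32 rose (27.8%, against 16.5%) and 21 fell (18.3%, against 11.7%), and with the clone as a block 21 rose and 10 fell. Without P2-CTCF-KO HPC D2.1, the library with the highest endothelial, neural, endoderm and mESC marker sums of its group, 31 rose and 32 fell. Of the 18 genes that rose in WT, 17 rose in P1-CTCF-KO, which is 94.4% of the WT list and 54.8% of the P1-CTCF-KO list, and 17 rose in P2-CTCF-KO, which is 53.1% of that list. Of the 54 that fell in WT, 25 fell in P1-CTCF-KO and 17 in P2-CTCF-KO, where 38 of the 54 were tested. No gene was called in opposite directions. The same overlap over all entries is not given here, so these shares are not read as particular to long genes. By edgeR, in all 3 genotypes 17 genes rose, among them Dlg2, Syne1, Pard3b, Prkg1, Kalrn, Arhgap6, the phospholipase Plcb1, the inositol phosphatase Inpp4b and the Rab GTPase-activating gene Rabgap1l, and 14 fell, among them Grid1, Gpc6, Tenm4, Cdk14, Fat3, Rora and Ptprk.

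Levels in the deletion clones followed the same order of stages. Pard3b stood at 52.0 to 113 CPM in P1-CTCF-KO mesoderm and at 10393, 3816 and 5623 CPM in P1-CTCF-KO HPC E7.1, E7.2 and E9.1 (log2 fold change 6.77 ± 1.05, adjusted p = 9.07e-05). In P2-CTCF-KO it stood at 23 to 40.7 CPM in mesoderm and at 7731, 2305, 1323, 669 and 1236 CPM in HPC D10.1, D10.1-2, D2.1, D2.1-2 and E9.1 (6.49 ± 1.04, adjusted p = 0.000117). Its 10357 CPM per Mb of span in P1-CTCF-KO HPC E7.1 was the highest level per length of any long gene in the 23 libraries. Every HPC library lay above every mesoderm clone, but the P2-CTCF-KO HPC libraries were widely spread, and both repeat libraries lay below the first library of their clone. Plcb1 was more even, at 16.3 to 33.7 CPM in P2-CTCF-KO mesoderm and 254 to 672 CPM in P2-CTCF-KO HPC (4.21 ± 0.63, adjusted p = 6.56e-05). Arhgap6 rose from a range of 120 to 166 CPM to one of 1332 to 2256 CPM in P1-CTCF-KO (3.79 ± 0.59, adjusted p = 9.46e-05). Prkg1 rose with log2 fold changes of 5.27 ± 0.93 in P1-CTCF-KO and 5.49 ± 0.93 in P2-CTCF-KO, Syne1 with 6.19 ± 0.99 and 5.60 ± 0.96, and Lrba with 1.79 ± 0.29 and 1.41 ± 0.27. Dlgap1 differed between clones, with 69.6, 252 and 2.77 CPM in P1-CTCF-KO HPC, so that HPC E9.1 lay below all 3 P1-CTCF-KO mesoderm clones. Vps13b, a lipid transfer gene, had an edgeR log2 fold change of 1.04 ± 0.18 in P1-CTCF-KO (adjusted p = 0.000246), 0.95 ± 0.17 in P2-CTCF-KO and 0.93 ± 0.20 in WT, on either side of the limit of 1.

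Among the genes that fell in P1-CTCF-KO, Pard3 (log2 fold change -2.18 ± 0.42) had the smallest adjusted p after Grid1. The protocadherin entries came next. They were followed by 5730522E02Rik (-2.75 ± 0.65), Cdk14 (-2.88 ± 0.70) and the secretory granule phosphatase gene Ptprn2 (-4.69 ± 1.25). In P2-CTCF-KO the genes with the smallest adjusted p after Grid1 included Rora (-2.84 ± 0.49), Tenm4 (-5.21 ± 0.93), Ptprk (-2.91 ± 0.53) and Ptprn2 (-3.64 ± 0.97). Another was Agbl4 (-1.89 ± 0.50), a gene whose nested entries held counts equal to 85.3% of its own. The genes Ptprt and Alk also fell there, and each had missed the threshold in one other genotype. Ptprt, a receptor phosphatase, fell from 337, 51.2 and 81.5 CPM in mesoderm to 7.2 to 26.6 CPM in P2-CTCF-KO HPC (log2 fold change -3.09 ± 0.55, adjusted p = 0.000301), and in P1-CTCF-KO its adjusted p was 0.193. The receptor tyrosine kinase gene Alk had 56.3 to 63.1 CPM in P2-CTCF-KO mesoderm and 0 to 14.4 CPM in HPC (-3.39 ± 0.77, adjusted p = 0.00205), and in WT its adjusted p was 0.167. Whether these effects differed between genotypes was tested for P2-CTCF-KO against WT, and neither passed (edgeR adjusted p = 0.986 for Ptprt and 0.894 for Alk). In the stage effect of P2-CTCF-KO against that of WT, edgeR called 0 of 115 long genes (against 0.0218% of all entries higher and 0% lower), with 24 under an unadjusted p of 0.05 (20.9%, against 7.01% of all entries) and 0 by DESeq2. The median of this difference was 0.86 over the long genes, 95 of which were positive, and 0.09 over all entries. The smallest p-values were those of Ccser1, a fragile-site gene, with a difference of 5.44 ± 1.68 (adjusted p = 0.36), the sialyltransferase gene St6galnac3 with 2.19 ± 0.58 (adjusted p = 0.294) and the transcription factor Sox6 with 3.94 ± 1.23 (adjusted p = 0.369), and none passed. In P2-CTCF-KO mesoderm Ccser1 had 0 to 3.74 CPM, at most 2 counts per library, which is near the limit of detection. Sox6 had 4.07 to 12.8 CPM there, at most 6 counts, and 19.7 to 506 CPM in WT mesoderm. The median difference was 0.60 without WT mesoderm B9.3.

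By edgeR no long gene was called between genotypes in mesoderm, and by DESeq2 13 were, all lower in P2-CTCF-KO. Most fold changes of long genes were negative in both genotypes. For P1-CTCF-KO against WT, edgeR called 0 of 111 long genes tested (0% of all 8778 entries in either direction), 10 had an unadjusted p under 0.05 (9.01%, against 1.91% of all entries) and DESeq2 called 0. The median log2 fold change was -0.36 over long genes, with 100 of the 111 negative, and -0.01 over all entries. For P2-CTCF-KO against WT, edgeR called 0 of 111 (0% of all entries higher and 0.0342% lower), and 43 had an unadjusted p under 0.05 (38.7%, against 16% of all entries). DESeq2 gave an adjusted p to 102 long genes and called 13 of them lower, against 143 of all 7161 entries (2%). The P2-CTCF-KO clones also differed from the WT clones without overlap in the summed markers given above, with more of the mesoderm, endoderm and mESC lists and less of the endothelial and CD41+ HPC lists, and the part of these cells in the medians was not tested. The median was -0.65, with 92 of 111 negative, against 0.01 over all entries. Both comparisons use the same 3 WT clones, so they share any deviation of those clones. Without WT B9.3 the medians were -0.24 for P1-CTCF-KO and -0.46 for P2-CTCF-KO, for which edgeR then called 1 gene, and without WT C6.1 it called 9. Without P2-CTCF-KO D10.1 the median of that genotype was -0.98.

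The smallest p-values of long genes in P2-CTCF-KO mesoderm were those of Arhgap6, Rbms3 and Nfia. Arhgap6 stood at 419, 154 and 182 CPM in the WT clones (B9.3, C6.1, C8.1) and at 61.7, 48.6 and 57.0 CPM in the P2-CTCF-KO clones (D10.1, D2.1, E9.1) (log2 fold change -2.25 ± 0.39, adjusted p = 0.0743). Rbms3, an RNA-binding protein gene, stood at 308, 184 and 449 CPM in WT and at 89.8, 79.3 and 61.1 CPM in P2-CTCF-KO (-2.09 ± 0.36, adjusted p = 0.0743). Nfia stood at 404, 187 and 287 CPM in WT and at 135, 61.4 and 108 CPM in P2-CTCF-KO (-1.59 ± 0.33, adjusted p = 0.121). The groups did not overlap for any of the 3, none passed with edgeR, and DESeq2 called all 3 lower. In P1-CTCF-KO, the smallest p-values were those of Fat3 (-0.78 ± 0.26, adjusted p = 1), Npas3 (-1.41 ± 0.50, adjusted p = 1) and Nrxn3 (-1.53 ± 0.55, adjusted p = 1). Npas3 had 88.7, 95.1 and 88.9 CPM in WT mesoderm and 38.4, 39.6 and 26.2 CPM in P1-CTCF-KO, without overlap, and Nrxn3 overlapped between the groups. Medians by role in P2-CTCF-KO ranged from -0.25 for axon guidance (5 genes) to -0.92 for cadherins and catenins (4 genes), and in P1-CTCF-KO from -0.18 to -0.68, so the median of each list was negative. By edgeR 0 genes of these lists were called, while DESeq2 called Arhgap6, Rbms3, Nfia and others as given above.

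In HPC neither tool called a long gene between genotypes. For P1-CTCF-KO against WT, edgeR called 0 of 88 long genes tested (0% of all 7422 entries), and DESeq2 called 0. An unadjusted p under 0.05 was found for 2 (2.27%, against 3.5% of all entries). The median log2 fold change was 0.28, against -0.01 over all entries. For P2-CTCF-KO, edgeR called 0 of 88 (0% of all entries), and DESeq2 called 0. An unadjusted p under 0.05 was found for 0 (0%, against 1.95% of all entries), and the median was 0.17, against 0.03. The median of P2-CTCF-KO turned to -0.11 without HPC D10.1 and to -0.14 without HPC D2.1, and so rested on these libraries. The smallest p-values in P2-CTCF-KO were those of St6galnac3, Diaph2 (1.68 ± 0.81) and the semaphorin Sema6d (1.51 ± 0.78), all with an adjusted p of 1 and with overlap. St6galnac3 had 260.2, 403, 627 and 485 CPM in WT HPC and 727, 948, 975, 436 and 471 CPM in P2-CTCF-KO (0.70 ± 0.32). In P1-CTCF-KO the smallest p-values were those of Fhit (0.77 ± 0.31), the forkhead gene Foxp1 (0.77 ± 0.35) and Zbtb20, all with an adjusted p of 0.91. Zbtb20, a zinc finger repressor gene, had 486, 361, 531 and 599 CPM in WT HPC and 1069, 699 and 757 CPM in P1-CTCF-KO (0.94 ± 0.45), without overlap.

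In WT, the share of entries that rose in mesoderm and the share that fell in HPC grew with span. In mesoderm against mESC, the share of entries called higher was 4.4% under 10 kb, 7.04% from 10 to 50 kb, 14.3% from 50 to 100 kb, 26.7% from 100 to 500 kb and 32.5% over 500 kb, while the share called lower stayed between 10.9% and 16.6%. In WT HPC against mesoderm the share called lower was 8.09%, 10.5%, 14.1%, 23.5% and 32.5% over the same classes, and the share called higher had its maximum (15.8%) in the class from 100 to 500 kb. In these 2 shares the long genes thus stood at the end of a gradient that already ran through shorter genes. Between mesoderm and HPC of the deletion genotypes, it was the higher share that grew with span. It went from 11.6% to 27% in P1-CTCF-KO and from 10.2% to 27.8% in P2-CTCF-KO. The lower share was 18.2%, 14.5%, 15.2%, 20.6% and 22.6% in P1-CTCF-KO. In P2-CTCF-KO it was 17.1%, 9.91%, 9.77%, 14.6% and 18.3%, so neither grew steadily. The WT shares come from a fit of the WT libraries with mESC, with 12899 entries and 166 long genes tested. Those of the deletion genotypes come from a fit without mESC, with 9170 entries and 115 long genes tested. The shares of WT and of the deletion genotypes thus rest on unlike sets of entries. When the stage effect of P2-CTCF-KO was tested against that of WT, edgeR called 0 of 115 long genes. Counts per entry, and with them the power of the test, also differ between these classes.

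**Figure D4:**
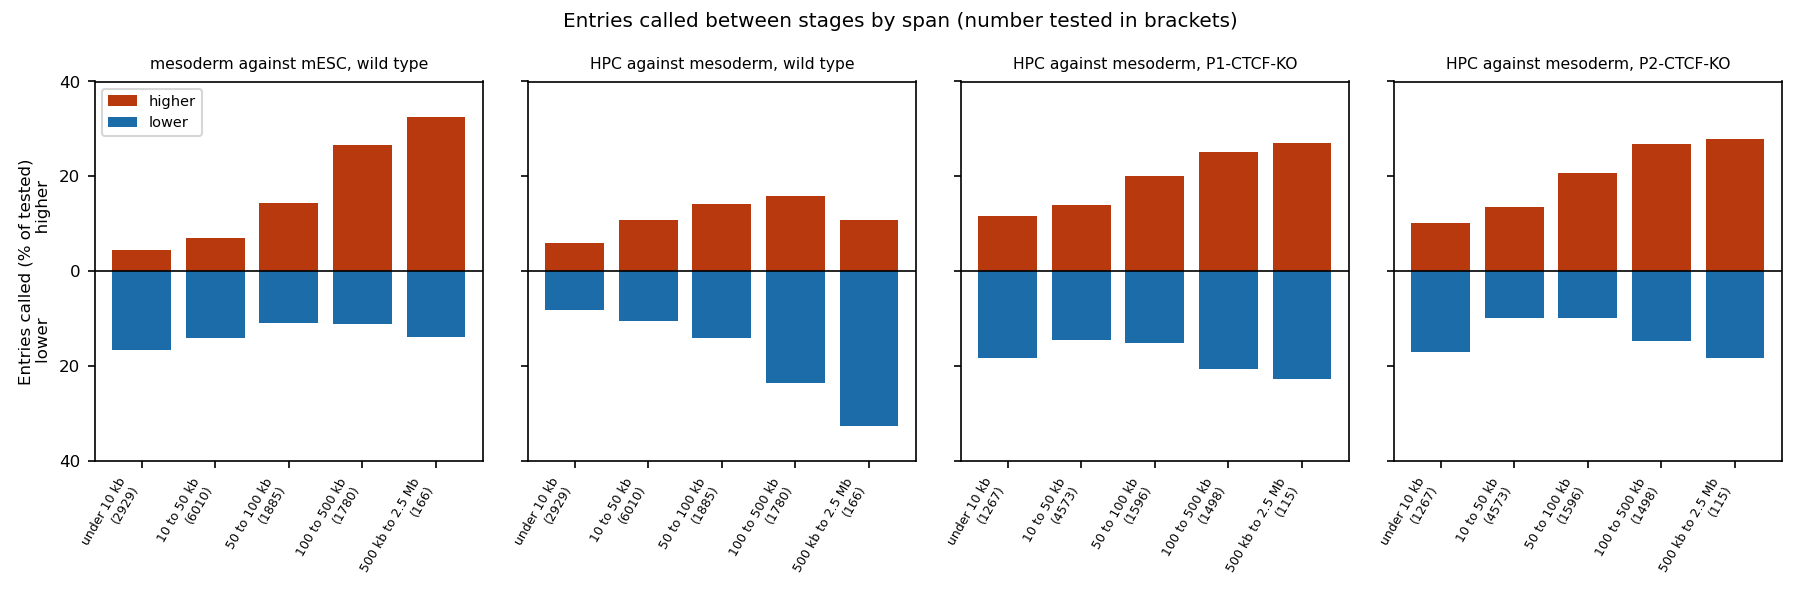
Share of tested entries called higher (up) and lower (down) between stages in 5 classes of gene span (y axis, % of tested), with the number tested in brackets under each bar. In WT HPC against mesoderm the lower share increases from 8.09% under 10 kb to 32.5% over 500 kb.

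The genotype medians had the same gradient in mesoderm. For P1-CTCF-KO they were 0.11, 0.05, -0.05, -0.18 and -0.36 from the shortest to the longest class, and 34.4%, 40.2%, 60.4%, 81% and 90.1% of the entries were negative. For P2-CTCF-KO they were 0.32, 0.09, -0.14, -0.34 and -0.65, with 25.2%, 41.3%, 65.5%, 73.5% and 82.9% negative. In HPC the medians of all classes lay between -0.06 and 0.28. These medians come from the same libraries as the shares of counts given above, in which WT mesoderm B9.3 (3.54% of the remaining counts) lay above all 6 deletion clones. Genes of the elongation machinery, such as subunits of the super elongation complex and topoisomerases, were not called in either genotype, with medians of 0.00 in P1-CTCF-KO and 0.17 in P2-CTCF-KO mesoderm over 38 genes.

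**Figure D5:**
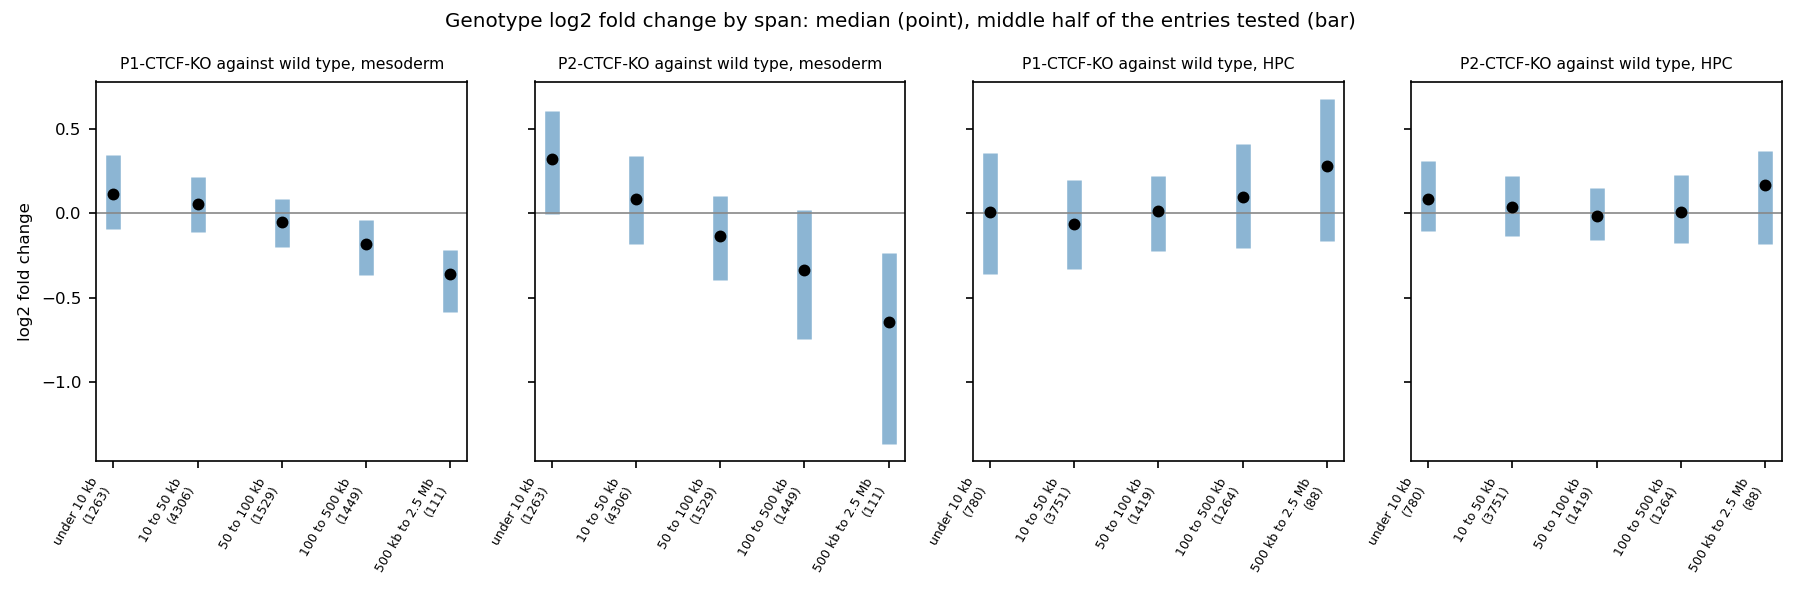
Log2 fold change of each deletion genotype against WT (y axis) in 5 classes of gene span, with the median as a point, the range from the lower to the upper quartile as a bar and the number tested in brackets. In mesoderm the medians run from 0.11 to -0.36 (P1-CTCF-KO) and from 0.32 to -0.65 (P2-CTCF-KO), and edgeR called 0 long genes in any panel, while DESeq2 called 13 lower in P2-CTCF-KO mesoderm.

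Between stages, the shares of elongation genes called stood at or under those of all entries. In mesoderm against mESC 4 of 38 rose (10.5%, against 10.7% of all entries) and 1 fell (2.63%, against 13.7%), with the topoisomerase genes Top1 (log2 fold change 1.11, adjusted p = 0.00488) and Top2b (1.03, adjusted p = 0.0121) and Larp7, which stabilises the 7SK RNA (1.07, adjusted p = 0.0494), among the higher, and the elongation factor Ell2 lower (-2.07, adjusted p = 0.00106). In WT HPC against mesoderm 3 rose (7.89%, against 10.8%) and 1 fell (2.63%, against 12.5%). Ell2 (4.27, adjusted p = 1.52e-05), the scaffold of the super elongation complex Aff1 (1.90, adjusted p = 0.0004) and Hexim1, an inhibitor of P-TEFb (2.15, adjusted p = 0.00489), were higher, and Cdk9, the kinase of P-TEFb, was lower (-1.32, adjusted p = 0.0211). The medians of the list were -0.06 and 0.09.

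Open starts and levels were compared within each stage. Long genes with a mesoderm ATAC-seq peak within 1 kb of the start had a median of 34.4 CPM per Mb in WT mesoderm (155 genes), and those without had 21.5 (51 genes). In HPC the medians were 16.3 with a peak (86 genes) and 7.64 without (120 genes). The quartiles overlapped widely in both, and the table start is not the start in use for every gene. Among genes called in WT HPC against mesoderm, 9 of 18 that rose, 27 of 54 that fell and 37 of 94 that were not called had an HPC peak at the start, so the share was the same in the genes that rose and in those that fell. Pard3b, the densest long gene of HPC, had 3 HPC peaks in its span, the nearest 536300 bp inside it, and none at any GENCODE start, whereas its nearest mesoderm peak lay 3111 bp from the start. Kalrn had its nearest HPC peak near a GENCODE start that lies 59505 bp upstream of the table start. Dlg2 had 22 HPC peaks in its span and one at a GENCODE start, and Prkg1 had none at its annotated starts in HPC and a mesoderm peak 3 bp from its start.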

How the data were processed

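RNA-seq counts of 23 libraries were used as the authors deposited them, as whole-number read counts per gene that include exons and introns. RNA without poly(A) tails was sequenced with a directional kit. Per the submitters' processing notes and the methods, reads were aligned with STAR to mm9, duplicates were removed with picard and reads were counted with featureCounts. The annotation version and the strand setting of the counting were not given in the sources used here, so overlapping genes cannot be told apart with certainty. All sample columns were matched to labels (0 unmatched). ATAC-seq and CTCF peaks were the positions (start and end) that the authors deposited from MACS2.

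Counts were tested with edgeR 4.0.16 (limma 3.58.1, R 4.3.3), by its quasi-likelihood test on TMM-scaled libraries after filterByExpr (minimum count 10). P-values were Benjamini-Hochberg adjusted over all entries tested, and called entries had an adjusted p under 0.05 and a log2 fold change beyond 1. Every adjusted p in the text comes from this test. WT stages were fitted together, HPC and mesoderm of the deletion genotypes together with WT, and genotypes within a stage. Tests were checked on simulated data. DESeq2 1.42.0, RLE size factors, no low-count filter, leaving out each library, the clone as a block and other settings were alternatives. Levels and peaks were processed with Python 3.11.15, pandas 2.3.3 and numpy 2.4.6, and plots with matplotlib 3.10.9. Intervals of span are those of the table, and start sequences are mm9.

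Same-numbered mesoderm and HPC libraries come from the same clone, so they are paired by design. The stage fits had no clone term, and the clone as a block was an alternative. Over 9170 entries their deviations correlated with r = 0.02, 0.19 and -0.07 for WT (clones B9.3, C6.1, C8.1), 0.03, 0.09 and 0.04 for P1-CTCF-KO E7.1, E7.2 and E9.1, and 0.09, -0.00 and 0.02 for P2-CTCF-KO D10.1, D2.1 and E9.1. Chi-square tests of the counts found no duplicated libraries.

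Long genes named are the 8 called with the smallest adjusted p per direction and stage comparison, the 3 with the smallest p where none was called between genotypes, the 5 longest and the 5 with most counts per length in each WT stage, plus first examples of role lists. Pcdh9, Ctnnd2, Celf2 and other list members are such examples. A few genes that met these rules are not reported here. The members and the lists were chosen with earlier results of these data known.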

Additional observations from a re-analysis of the deposited data

Results flagged for a closer look

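Single HPC libraries stood far from the rest of their group in 27 of 97 sets of named gene and group, where chance would give about 1 in 20 for independent sets. These sets are not independent, because they share the same libraries and include entries that share reads. In WT HPC all of these were library B9.3. Its level was 112 CPM for Cdk14 (others 38.9 to 48.2), 102 CPM for Enox1 (3.47 to 14.5), 449 CPM for Gpc6 (13.9 to 38.6), 175 CPM for Nfia (75.9 to 82.0), 34.6 CPM for Ptprd (4.82 to 6.95), 413 CPM for Ptprg (62.5 to 74.0), 510.5 CPM for Rbms3 (13.0 to 27.8) and 136 CPM for Tenm4 (0 to 7.24). These are genes that were high in mesoderm or mESC, and the same library had the highest sum of cardiac and smooth muscle markers of its group.

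In P2-CTCF-KO HPC library D2.1 stood apart with 33.7 CPM for 5730522E02Rik, 23.1 CPM for Agbl4, 303 CPM for Ank2, 282 CPM for Cdk14, 319 CPM for Diaph2, 715 CPM for Etl4, 388 CPM for Frmd4a, 557 CPM for Gpc6, 532 CPM for Nfia, 814 CPM for Ptprg and 317 CPM for Sema6d. The overlapping entries Gm37013, Gm38666 and Gm38667 each had 439.8 CPM there. This library had the highest endothelial sum of its group (1564 CPM) and a cardiac and smooth muscle sum of 411 CPM. Its neural (105 CPM), endoderm (176 CPM) and mESC (72.7 CPM) sums were also the highest of the group. Library D10.1 stood apart in genes that were high in HPC, with 1697 CPM for Dlg2, 635 CPM for Lrmda, 7731 CPM for Pard3b and 3218 CPM for Syne1, and had 45.8 CPM for Gabrg3. The part of other cell types in these values was not tested.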

How the results depend on the processing

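The count of long genes lower in WT mesoderm than in mESC was 13 with DESeq2 and 14 without the 11 dominant entries, against 23. With both mESC libraries summed to 1, chosen after seeing the data, 23 were higher and 9 lower in mesoderm, against 54 and 23. The count lower in WT HPC than in mesoderm was 28 with the clone as a replicate block and 27 for the same libraries without it, against 54. In P2-CTCF-KO the counts between stages were 21 higher and 10 lower with the replicate block, and the lower count was 11 without it in these libraries alone, 36 without the low-count filter and 32 with all 23 libraries in 1 fit. The block changed no other count by over 1.5 times. For P2-CTCF-KO against WT mesoderm, 13 genes were called with DESeq2 and 30 without the filter.

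Leaving out 1 library gave 21 to 63 higher and 8 to 26 lower in mesoderm against mESC, 16 to 21 higher and 44 to 66 lower in WT HPC, 26 to 32 higher and 20 to 32 lower in P1-CTCF-KO HPC, and 20 to 33 higher and 12 to 32 lower in P2-CTCF-KO HPC. The extremes for P2-CTCF-KO came without mesoderm E9.1 (20 higher), mesoderm D10.1 (12 lower) and HPC D2.1 (32 lower). Between genotypes it gave 0 to 9 calls in P2-CTCF-KO mesoderm and 0 in the other comparisons.

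Without the dominant entries in the total, the mean share of counts in long genes was 3.12% in WT mesoderm, 2.48% in P1-CTCF-KO, 2.25% in P2-CTCF-KO and, in the same order of genotypes, 2.96%, 3.86% and 2.80% in HPC, and P1-CTCF-KO HPC had 0.967% of all single-locus counts without its top member. Peaks over the start itself were found in 83 genes in mesoderm, 40 in HPC and 4 for CTCF, and 41 genes had a CTCF peak within 5 kb. Of the named fold changes none reversed. DESeq2 called 3 of 77 that edgeR had not, namely Rbms3, Arhgap6 and Nfia in P2-CTCF-KO mesoderm, and 77 of 77 kept their call with RLE factors. With 1 library left out, 1125 values kept their call, 4 newly passed and 2 no longer passed.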
